A study of Mus musculus with 8 samples.

Results

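Conventional and CCR7 dendritic cells were described here in single-cell RNA libraries of CD45+ cells from the mouse submandibular gland and its draining lymph nodes. Their members were chosen on measured counts of unique molecular identifiers (UMIs, 1 per captured RNA molecule). A barcode of the 4 expression libraries, named C1 to C4 in the files, was kept if it had 500 UMIs or more, 300 genes or more, and no more than 10% of its UMIs on mitochondrial genes. A member then needed at least 20 UMIs of Cd74 (the invariant chain of MHC class II), no UMI of Cd3d, Cd3e, Cd3g or Cd79a, at most 4 UMIs of C1qa, C1qb and C1qc together, and under 3 of Siglech. It also had to meet at least 1 of 3 criteria: 2 UMIs of Xcr1 and Clec9a together (type 1 cells), 2 of Cd209a (type 2 cells), or 3 of Fscn1 and Ccl22 together (the criterion called CCR7, here the Fscn1/Ccl22 cells). These steps left 100 members among 25172 kept barcodes, which is 0.397% (95% Clopper-Pearson interval 0.323 to 0.483). Because these values chose the cells, and because the same cells supply every other gene, all differences between the subgroups are descriptions without a test.

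Dendritic cells take up antigen, display its peptides on MHC molecules and activate T cells. Type 1 conventional dendritic cells depend on the transcription factor Irf8, carry the chemokine receptor Xcr1 and the dead-cell receptor Clec9a, and are known for presenting engulfed antigen to CD8+ T cells. Type 2 cells depend more on Irf4, carry lectins such as Cd209a and mainly address CD4+ T cells. Mature cells of both kinds switch on the chemokine receptor Ccr7, which guides them to lymph nodes, together with the actin-bundling protein Fscn1, the T-cell attractant Ccl22 and genes of the NF-kB pathway.

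The labels describe 4 expression samples: cells of the submandibular gland and of its draining lymph nodes, each from control mice and from mice of the genotype written SS, which the labels do not spell out. The design text gives 4 SS and 4 control mice of about 12 weeks, names no strain, and does not say whether the mice were pooled. The gland was digested with collagenase, the lymph nodes were only triturated, and cells stained for CD45.2 were sorted. Nothing in the labels, headers or barcodes links the names C1 to C4 with a tissue or genotype, so each library is shown by its own name, no group was compared, and no library was assigned from what its cells express. Each condition has 1 library and no replicate. The 4 T-cell receptor samples were not analysed here.

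The 4 libraries held between 37902916 and 77819179 UMIs and between 5067 and 8532 kept barcodes. Any pair of libraries shared 31 to 85 kept barcode sequences. Of the members, 2 had a barcode sequence that was also kept in another library, and 0 were members in both. The doublet caller Scrublet marked 2.96%, 0%, 0.0234% and 1.95% of kept barcodes in C1 to C4, which for C2 and C3 is too few to count as a working call. It marked 0 members, and 1 member, in C2, scored above the 95th percentile of its library.

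C1 held 33 members, 0.588% of its kept barcodes (95% Clopper-Pearson interval 0.405 to 0.824). C2 held 26, or 0.513% (0.335 to 0.751). C3 held 21, or 0.246% (0.152 to 0.376), and C4 held 20, or 0.336% (0.205 to 0.518). The intervals of C1 and C3 did not overlap, whereas that of C4 overlapped all others. All intervals given here cover counting error only, since there are no replicate libraries. The members of C1 to C4 had median depths of 12717, 14072, 15967 and 11134 UMIs, and single cells ran from 1428 to 37909 UMIs.

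The mixture of subgroups differed more between libraries than the total. Type 2 cells made up 69.7% of the members of C1 (23 cells, interval 51.3 to 84.4) and 69.2% of C2 (18 cells, 48.2 to 85.7). They made up 28.6% of C3 (6 cells, 11.3 to 52.2) and 15.0% of C4 (3 cells, 3.21 to 37.9). The Fscn1/Ccl22 cells ran the other way, with 9.09% of C1 (3 cells, 1.92 to 24.3), 3.85% of C2 (1 cell, 0.0973 to 19.6), 57.1% of C3 (12 cells, 34.0 to 78.2) and 45% of C4 (9 cells, 23.1 to 68.5). Thus 41 of the 50 type 2 cells lay in C1 and C2, and 21 of the 25 Fscn1/Ccl22 cells in C3 and C4. Type 1 cells were few everywhere, at 3, 6, 2 and 6 cells. Another 4, 1, 1 and 2 cells met 2 criteria and were kept apart from the 3 subgroups.

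**Figure D1:**
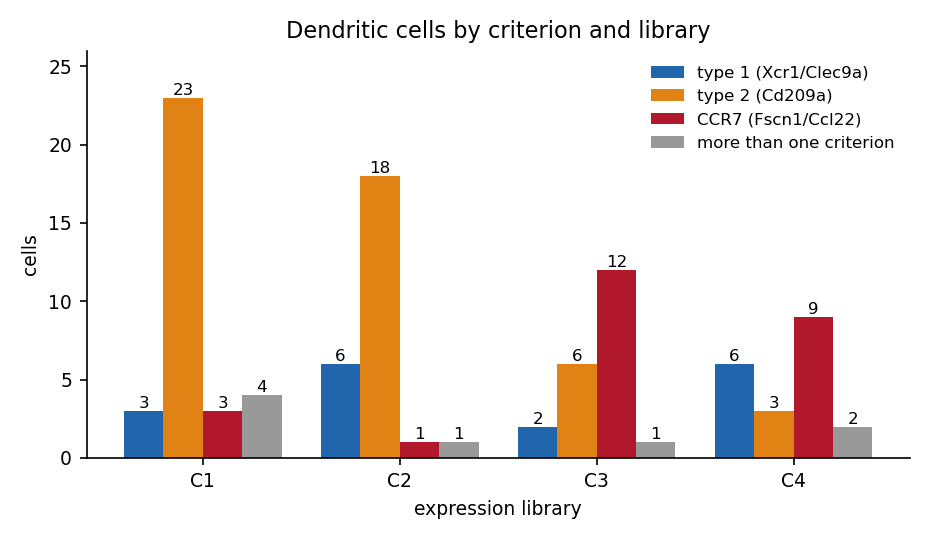
Number of cells (bars, vertical axis) that met each criterion in each expression library (horizontal axis), with cells that met more than 1 criterion in grey. Type 2 cells are the tallest bars of C1 and C2 (23 and 18 cells), and the Fscn1/Ccl22 cells, labelled CCR7, are the tallest of C3 and C4 (12 and 9 cells).

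Few type 2 and Fscn1/Ccl22 cells lay next to a threshold, whereas more of the type 1 cells did. Just inside, 5 of the 17 type 1 cells had exactly 2 UMIs of Xcr1 and Clec9a, 3 of them in C2. Of the 50 type 2 cells, 2 had exactly 2 of Cd209a, and 1 of the 25 Fscn1/Ccl22 cells had exactly 3 of Fscn1 and Ccl22. Just outside, among cells that passed the common steps, 4 had 1 UMI of Xcr1 and Clec9a, 4 had 1 of Cd209a, and 3 had 1 or 2 of Fscn1 and Ccl22. A further 191 passed the common steps with no UMI of any of the 5 genes, and 123 of these had a UMI of the macrophage colony-stimulating factor receptor Csf1r, whereas 23 had one of Flt3. The Cd74 minimum mattered for the Fscn1/Ccl22 criterion: 18 barcodes met it and passed all other steps with under 20 UMIs of Cd74, and 13 of those 18 had a Ccr7 UMI. They lay mostly in C3 (11 barcodes), with 3 in C1, 0 in C2 and 4 in C4. For the other criteria the same step removed 3 and 5 barcodes. The C1q limit removed most in C2, where 120 of the 156 barcodes that met a criterion and the Cd74 minimum had over 4 C1q UMIs.

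The members carried dendritic genes that the criteria did not use. Flt3, the receptor for the growth factor that dendritic cells need (ENSMUSG00000042817, chr5:147330741-147400489, GRCm38), reached 303, 98.7, 71.4 and 234 CPM (UMIs of a gene per 1000000 UMIs, from summed UMIs) in type 1 cells of C1 to C4. It reached 98.4, 42.7, 122 and 155 CPM in type 2 cells and 138, 54.6, 94.2 and 193 CPM in the Fscn1/Ccl22 cells. Its highest level in any library was 0.0826 CPM in T cells, 18.3 in B cells and 12.7 in macrophages. These comparison cells were kept barcodes of the same libraries with at least 2 Cd3, 2 Cd79a or 10 C1q UMIs, and the macrophages of C4 (1 barcode) were at 0. The Flt3 level of plasmacytoid dendritic cells is not given here, so Flt3 is not shown to set the members apart from those cells. Thinned to 5071 UMIs per cell, 57.1%, 32.7% and 36.8% of the 3 subgroups had a Flt3 UMI (82.4%, 58.0% and 60% before thinning), against 0.628% of macrophages. A UMI of Flt3 or of Zbtb46, a transcription factor of conventional dendritic cells, was present in 15 of 17 type 1, 39 of 50 type 2 and 18 of 25 Fscn1/Ccl22 cells.

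The label of the third subgroup held for most of its cells only. Ccr7 (ENSMUSG00000037944, chr11:99144199-99155077), which the criterion did not count, had a UMI in 18 of the 25 Fscn1/Ccl22 cells: 2 of 3 in C1, 1 of 1 in C2, 6 of 12 in C3 and 9 of 9 in C4. It had one in 0 of 17 type 1 and 1 of 50 type 2 cells. Type 2 cells also carried genes of monocytes, the blood cells that can take on dendritic features: 24 of 50 had at least 3 UMIs of Ly6c2 or 10 of Lyz2 (12 in C1, 9 in C2, 3 in C3, 0 in C4), and 27 of 50 had a Csf1r UMI. The same cut was met by 7 of 17 type 1 cells and 2 of 25 Fscn1/Ccl22 cells, and a Csf1r UMI was present in 3 and 5 of them. One type 1 cell of C3 had 27 UMIs of Ly6c2, 78 of Lyz2 and 0 of Xcr1. The names type 1 and type 2 therefore stand here for the Xcr1/Clec9a and Cd209a criteria. Cells of monocyte origin among them cannot be told apart by these criteria.

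Xcr1 (ENSMUSG00000060509, chr9:123852315-123862029) and Clec9a (ENSMUSG00000046080, chr6:129408862-129424764) chose the type 1 cells, and 12 of 17 had UMIs of both. Xcr1 stood at 101, 355, 321 and 367 CPM in them. Among the genes not used, they were set apart by Irf8, the transcription factor on which this lineage depends. Irf8 levels over C1 to C4 were 1770.1 CPM (exact Poisson interval 1379.9 to 2236), 1766 (1517 to 2044), 1392 (1100.2 to 1737) and 1935 (1658 to 2245). Type 2 cells had 14.6, 85.4, 83.6 and 0 CPM, and the Fscn1/Ccl22 cells 165, 3876, 197 and 68.1 CPM, where 3876 comes from the single cell of C2. Every library's type 1 cells thus lay above its type 2 cells, and 16 of 17 type 1 cells had an Irf8 UMI against 17 of 50 type 2 cells. Irf4, the factor of the type 2 lineage, had no UMI in any type 1 cell. It stood at 91.1, 59.8, 98.8 and 44.2 CPM in type 2 cells, with a UMI in 27 of 50, and in 7 of 25 Fscn1/Ccl22 cells.

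**Figure D2:**
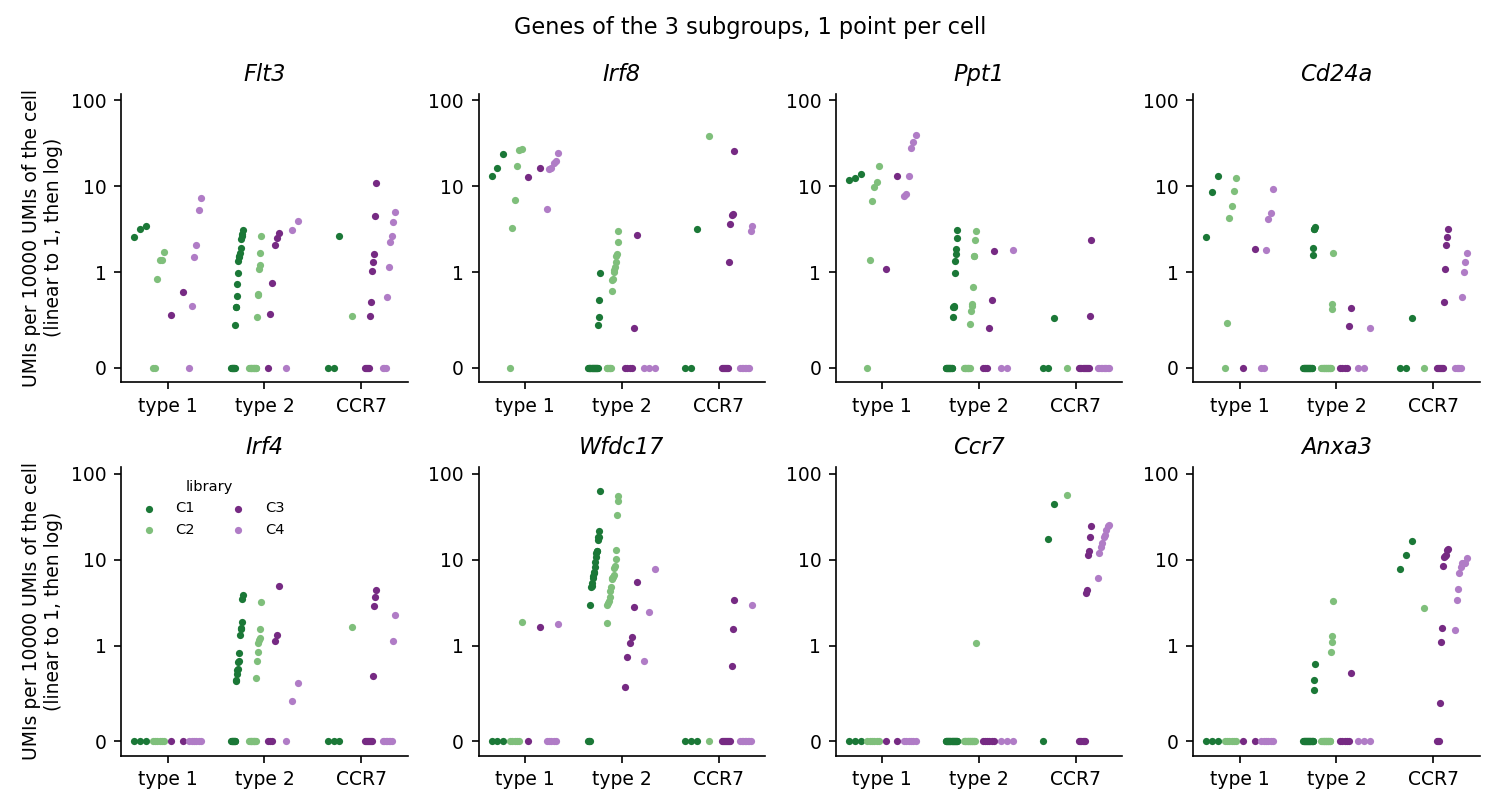
UMIs per 10000 UMIs of each cell (vertical axis, linear to 1 and then logarithmic) for 8 genes in the 3 subgroups (horizontal axis; CCR7 marks the Fscn1/Ccl22 cells), with 1 point per cell coloured by library. Ppt1 and Cd24a reach their highest values in type 1 cells, Irf8 is high in most type 1 cells (up to 27.3) with its highest point in the single Fscn1/Ccl22 cell of C2 (38.8), Irf4 has no UMI in type 1 cells, Wfdc17 is highest in type 2 cells, and Ccr7 and Anxa3 are highest in the Fscn1/Ccl22 cells.

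To find further genes, each subgroup's summed CPM was set against that of the other 2 subgroups within each library that had at least 3 cells on both sides. The mixture on the other side differed between libraries. For type 1 cells it was 23 type 2 and 3 Fscn1/Ccl22 cells in C1, but 3 and 9 in C4. Folds of different libraries are therefore not against a like mixture. A gene needed at least 10 UMIs over the 2 sides in each of these libraries, and it was counted when it was at least 2-fold higher, or lower, in every one; a side at 0 was set to 3 UMIs, and its fold is then a lower bound. Where 1 side had 1 to 3 UMIs, the fold is given with its exact 95% counting interval. For type 1 cells (C1, C2 and C4), 60 of 2814 genes, 2.13%, were higher and 74, or 2.63%, were lower, the rule's own genes included. The higher count was 139 without C1, 146 without C2 and 120 without C4. The lower count was 168 without C1, 146 without C2 and 156 without C4. Fewer libraries then had to agree.

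Ranked by the smallest difference over the libraries, the first gene was Ppt1, a lysosomal enzyme that removes fatty acids from proteins. Ppt1 stood at 1264 CPM against 51.5 in the other cells of C1, at 878 against 59.4 in C2 and at 1679 against 22.5 in C4, or 24.5-, 14.8- and 74.7-fold higher (the last with an interval of 25.1 to 366). Cd24a, a surface glycoprotein used to mark type 1 cells, was 13.1-, 33.6- and 12.4-fold higher. The lipid hydrolase Naaa was 8.03-, 5.15- and 17.8-fold higher, and Gatm, an enzyme of creatine synthesis, 7.07-, 7.48- and 7.91-fold (the last 2.27 to 42.4). Cd36, a scavenger receptor for lipids and dying cells, was 27.5-fold higher in C1, at least 19.9-fold in C2 and at least 4.95-fold in C4. Lower in type 1 cells was Tmem176b, a membrane protein of immature myeloid cells, at 0 against 847 CPM in C1, 0 against 602 in C2 and 22.2 against 1454 in C4. Of a list of genes known from type 1 cells, 17 were found in the files, 10 had enough UMIs and 8 were counted as higher (Irf8, Cd24a, Wdfy4, Naaa, Id2, Ppt1, Ifi205 and Cd36). That list's median log2 difference was 3.36, against 0.04 over all genes tested, of which 2.13% were counted as higher.

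Other genes of that lineage were detected mainly in type 1 cells. Tlr3, the sensor of double-stranded RNA, stood at 25.3, 197, 89.2 and 122 CPM in type 1 cells of C1 to C4 and at 0 in both other subgroups. Its level in macrophages was 15.9, 15.2, 6.34 and 0 CPM. Cd207, the lectin langerin, was found in type 1 cells of C4 alone, at 111 CPM in 3 of 6 cells. Genes of the NF-kB pathway went the other way: 6 of 14 listed members tested were lower in type 1 cells and 0 higher (Nfkb1, Relb, Nfkbia, Tnfaip3, Traf1 and Cflar). Their median log2 difference was -1.59, against 0.04 over all genes tested, of which 2.63% were lower and 2.13% higher.

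Cd209a (ENSMUSG00000031494, chr8:3743395-3748984), which chose the type 2 cells, stood at 1972, 1195, 539.8 and 640.4 CPM in those of C1 to C4. Macrophages, which can also carry such lectins, had 0 Cd209a UMIs in every library. Type 2 cells differed from the other subgroups in few genes across all 4 libraries. Of 2670 genes, 10 (0.375%) were higher, 1 of them the rule's own Cd209a, and 32 (1.20%) were lower. Without C1, C2, C3 and C4 in turn, the higher count was 12, 17, 45 and 36. The lower count was then 49, 74, 59 and 59. The 9 higher genes besides Cd209a were Wfdc17, Emb, Klrd1, Crlf2, Rara, Slc50a1, Nfkb1, Ptp4a3 and Cd7. For Rara, Slc50a1 and Ptp4a3 the counting interval of the fold reached below 1 in at least 1 library. Lower in type 2 cells were, among others, Ccr7, Id2, Ppt1, Irf8, Cd63, Tspan3 and Cxcl16.

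Wfdc17, a small secreted protein with a whey acidic protein domain, had a UMI in 46 of 50 type 2 cells, at 1035 CPM (918 to 1163), 1041 (915 to 1181), 198 (129 to 289.6) and 221 (106 to 406) over C1 to C4. That was at least 26.2-fold above the other cells in C1, and 31.2-, 3.11- and 7.86-fold above them in C2 to C4. Klrd1, the lectin-like receptor chain CD94 known from natural killer cells, stood at 255, 218, 479 and 707 CPM, or 2.76-, 3.72-, 6.90- and 8.99-fold higher. Crlf2, a chain of the receptor for the epithelial cytokine TSLP, was 8.57-fold (2.27 to 72.3), 2.89-, 2.63- and 5.62-fold higher. Rara, a retinoic acid receptor, was 2.30-fold (0.703 to 11.9), 2.55-, 3.94- and 2.62-fold higher. Wfdc17 was thus higher in C1 and C2 than in C3 and C4, and Klrd1 was higher in C3 and C4. Without the 24 cells rich in Ly6c2 or Lyz2, Wfdc17 stood at 639.5, 1013, 152 and 221 CPM and Klrd1 at 306, 261, 1006 and 707 CPM, in the same order of library pairs.

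The genes usually named for type 2 cells were too sparse for that comparison: of 20 found, 4 had enough UMIs and 0 were counted, with a median log2 difference of 1.23 against -0.02 over all genes. Mgl2, a galactose-binding lectin, stood at 671 CPM (15 of 23 cells), 248 (4 of 18), 106 (1 of 6) and 66.2 (1 of 3) in type 2 cells of C1 to C4, and at 0 in type 1 and in Fscn1/Ccl22 cells. The related lectin Clec10a stood at 368, 393, 45.6 and 155 CPM in type 2 cells. Sirpa, which binds the CD47 signal on healthy cells, stood at 117, 166, 152 and 397 CPM. The chemokine receptor Ccr2, which monocytes and their offspring share, stood at 579.5, 482, 289 and 44.2 CPM. Ccr2 and Sirpa were not confined to type 2 cells. The type 1 cells of C1 had 10, 5 and 5 UMIs of Ccr2. In C4, type 1 cells had 12, 8, 8, 0, 0 and 0 of them, and type 2 cells 1, 1 and 0. In C3, Fscn1/Ccl22 cells had 17, 12, 10, 7, 6, 3 or 1 UMIs of Sirpa, and the rest had none. Neither gene thus set type 2 cells apart in every library. Over all type 2 cells Mgl2, Clec10a and Ccr2 were thus higher in C1 and C2 than in C3 and C4, and Sirpa was highest in C4. Part of this moved with the cells rich in Ly6c2 or Lyz2. Without them Mgl2 stood at 341, 299, 266 and 66.2 CPM, the C3 value from the same 14 UMIs of 1 cell over a smaller total. Ccr2 then stood at 234, 154, 75.9 and 44.2 CPM, Clec10a at 362, 484, 38.0 and 155, and Sirpa at 99.5, 146, 171 and 397.

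The Fscn1/Ccl22 cells had the broadest difference. In C1, C3 and C4, 124 of 2770 genes (4.48%) were higher and 60 (2.17%) were lower. The higher count was 201 without C1, 248 without C3 and 189 without C4. The lower count was 192 without C1, 277 without C3 and 108 without C4. With the 7 cells that lacked a Ccr7 UMI left out, C1 kept 2 such cells and dropped out, 213 genes were higher and 296 lower in C3 and C4, and 99 of the 124 and 37 of the 60 were among them.

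Ccr7 itself stood at 3085 CPM (2539.8 to 3712), 5622 (4589 to 6819), 265 (180.3 to 377) and 1770.0 (1503 to 2071) over C1 to C4. T cells, which also use Ccr7, had 80.3, 20.2, 175 and 419 CPM. In every library the interval of the Fscn1/Ccl22 cells lay above the T cells' level, in C3 by little, and all Ccr7 UMIs of C3 lay in 6 of its 12 cells. Fscn1 (ENSMUSG00000029581, chr5:142960355-142973189) and Ccl22 (ENSMUSG00000031779, chr8:94745684-94751388) chose these cells. Fscn1 stood at 2671, 1255, 1481 and 2598 CPM, and Ccl22 at 303, 7151, 34.2 and 590 CPM. Members of C3 thus passed on Fscn1 almost alone.

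Within C3 the 12 Fscn1/Ccl22 cells differed by whether Ccr7 was detected. The 6 with a Ccr7 UMI had a median of 3106 UMIs, and 33 other genes of the mature program summed to 26254 CPM (24323 to 28298). The 6 without one had a median of 16394 UMIs, and the same genes summed to 4419 CPM (3997 to 4873). Depth therefore ran opposite to detection: the cells without a Ccr7 UMI were the deeper ones. Cacnb3, a calcium channel subunit, stood at 653 CPM in the 6 with Ccr7 and at 33.1 in the 6 without, and Socs2, a brake on cytokine signalling, at 998 and 0 CPM. Lyz2, the lysozyme of monocytes and macrophages, stood at 230.3 and 12419 CPM, the latter in 2 of the 6 cells. In the other libraries the 33 genes summed to 23268 CPM in the 2 cells of C1 with Ccr7 and 17493 in the 1 without, 38592 in C2 and 19719 in C4.

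**Figure D3:**
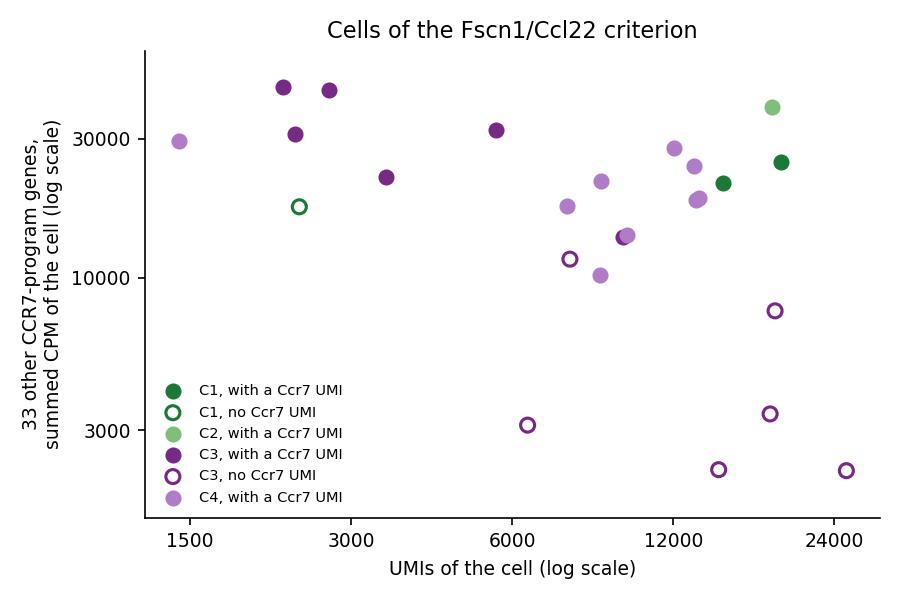
Summed CPM of 33 mature-program genes, without Ccr7, Fscn1 and Ccl22 (vertical axis, logarithmic), against the UMIs of the cell (horizontal axis, logarithmic) for the 25 Fscn1/Ccl22 cells, coloured by library, with open circles for cells without a Ccr7 UMI. Cells with a Ccr7 UMI lie between 10182 and 45069 CPM, and those without one between 2177 and 17493.

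Ranked by the smallest difference over the libraries, Anxa3 and Ccl5 came first. Anxa3, a calcium-binding annexin, had a UMI in 22 of 25 cells and stood at 991, 351 and 669 CPM in C1, C3 and C4, or 104-fold (32.8 to 527), 65.8-fold (11.2 to 2663) and at least 30.2-fold above the other subgroups. Ccl5, a chemokine that attracts T cells, stood at 9859.5, 342 and 5457 CPM, or 1547-fold (425 to 12827), 21.4-fold (6.82 to 108) and at least 246-fold higher. Cd63, a tetraspanin of late endosomes, was at least 147-, 15.0- and 41.4-fold higher, and Cacnb3 at least 60.5-, 10.7- and 30.7-fold. Socs2 was at least 49.0-, 13.9- and 26.6-fold higher. Cxcl16, a membrane-bound chemokine, was 9.39-, 7.63- and 9.51-fold higher. For Ccl5 the libraries lay far apart, with C1 and C4 above C3.

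Of 34 listed genes of the mature program that were found, 23 had enough UMIs and 20 were counted as higher, 0 as lower. Their median log2 difference was 3.39 against -0.14 over all genes tested, of which 4.48% were higher. Il4i1, an enzyme that breaks down amino acids, stood at 606, 1010.3 and 1237 CPM in C1, C3 and C4, with 32.8, 274 and 177 CPM in their type 2 cells. Tmem123, a surface mucin-like protein, stood at 3305, 728 and 3948 CPM, with 102, 129 and 132 CPM in type 2 cells. The costimulatory list was less uniform: 1 of 5 tested members was counted, the adhesion ligand Icam1 (4.16-, 2.84- and 2.45-fold higher). The costimulator Cd86 stood at 55.1, 188 and 56.7 CPM, with 76.5, 15.2 and 44.2 CPM in type 2 cells. Il12b, a subunit of the cytokine that drives interferon-gamma production, stood at 14902 CPM in the single cell of C2, at 578 in C1 (1 of 3 cells), at 0 in C3 and at 11.3 in C4 (1 of 9).

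**Figure D4:**
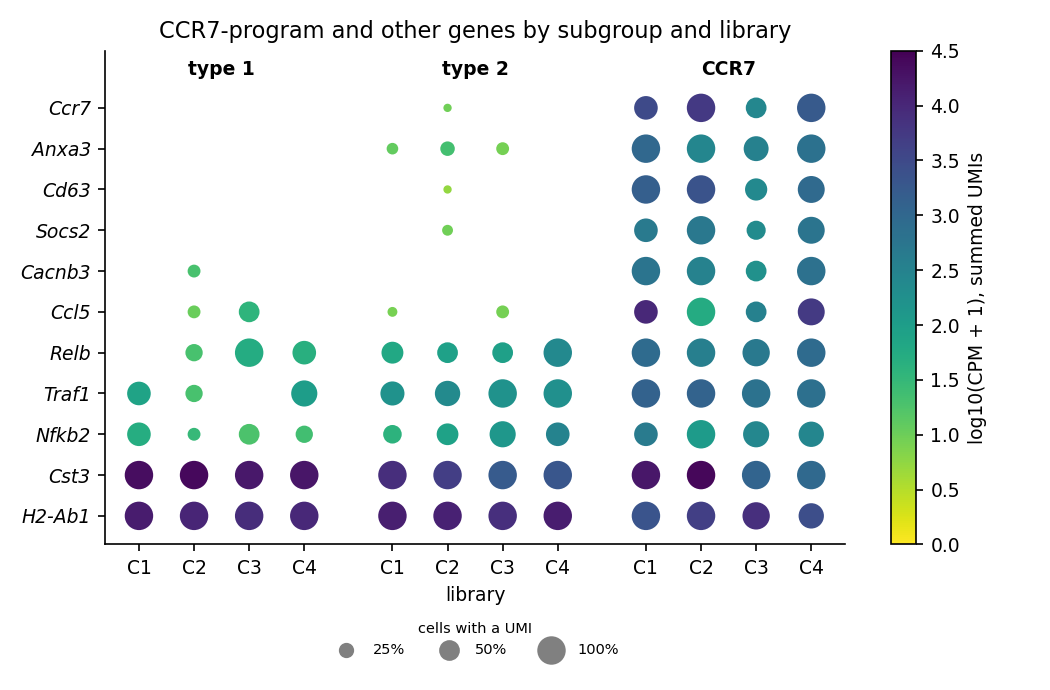
Level of 11 genes (rows) in the 3 subgroups and 4 libraries (columns; CCR7 marks the Fscn1/Ccl22 cells); colour gives log10(CPM + 1) of the summed UMIs and dot area the share of cells with a UMI. Ccr7, Anxa3, Cd63, Socs2, Cacnb3, Ccl5, Relb and Traf1 are darkest in the Fscn1/Ccl22 column of each library, and Cst3 there is dark in C1 and C2 (16965 and 26146 CPM) and lighter in C3 and C4 (1147 and 942 CPM).

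The NF-kB pathway, whose factors enter the nucleus when a dendritic cell is activated, was among the higher lists. Of 13 tested members, 6 were counted as higher in Fscn1/Ccl22 cells (Nfkb2, Rel, Rela, Relb, Traf1 and Cflar) and 0 as lower. Their median log2 difference was 1.38, against -0.14 over all genes tested, of which 4.48% were higher and 2.17% lower. Relb, the partner of the Nfkb2 product in the non-canonical branch, stood at 881 (603 to 1244), 382 (154 to 787), 488 (369.6 to 632) and 896 CPM (709.6 to 1117) in C1 to C4. Type 2 cells had 62.0, 85.4, 91.2 and 243 CPM of Relb, and type 1 cells 0, 19.7, 53.5 and 44.5. Each library's Fscn1/Ccl22 cells were thus above both other subgroups. Nfkb2 was 10.6-, 2.77- and 2.30-fold higher in C1, C3 and C4, and Rel, the c-Rel subunit, 2.29-, 3.46- and 7.52-fold. Traf1, an adaptor of TNF receptors, stood at 1267, 1201, 625 and 726 CPM.

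The promoters of the genes higher in Fscn1/Ccl22 cells were searched for the NF-kB-like words GGGANTTCC and GGGANTTTC on both strands of the 250 bases before the start; both words, and both strands of 1 word, can match overlapping bases. Of 102 of the 124 genes with a RefSeq promoter of build GRCm38.p6, 10 (9.8%) had a match, as had 729 of 27025 genes in all (2.7%). The latter were not limited to genes with enough UMIs in these cells, so the shares are of unlike sets, and no share among the tested genes is given. Leading genes such as Ccr7, Relb, Ccl5, Anxa3 and Socs2 had no promoter to search. Among the genes higher in type 1 cells, 1 of 49 (2.04%) had one, and among those higher in type 2 cells 0 of 6. A match describes letters, not a bound site. The promoters of 3 of the 10 are printed, from RefSeq, to show such words in 2 NF-kB subunit genes (Nfkb2, Rel) and in the tetraspanin Tspan3, which were chosen after their values were seen. Capitals mark the match, and each is written 5′ to 3′ on the gene's strand.
Nfkb2, chr19:46304487-46304736, plus strand: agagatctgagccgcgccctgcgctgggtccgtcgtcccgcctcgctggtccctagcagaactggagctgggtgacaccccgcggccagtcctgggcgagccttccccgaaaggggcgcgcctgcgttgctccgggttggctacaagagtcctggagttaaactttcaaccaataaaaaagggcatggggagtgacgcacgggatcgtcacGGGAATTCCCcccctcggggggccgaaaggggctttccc
Rel, chr11:23770970-23771219, minus strand: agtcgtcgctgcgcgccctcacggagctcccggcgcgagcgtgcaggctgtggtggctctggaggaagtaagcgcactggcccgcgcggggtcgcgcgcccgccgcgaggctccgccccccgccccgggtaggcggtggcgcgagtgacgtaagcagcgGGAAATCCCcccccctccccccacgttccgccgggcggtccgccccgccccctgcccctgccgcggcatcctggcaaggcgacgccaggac
Tspan3, chr9:56161071-56161320, minus strand: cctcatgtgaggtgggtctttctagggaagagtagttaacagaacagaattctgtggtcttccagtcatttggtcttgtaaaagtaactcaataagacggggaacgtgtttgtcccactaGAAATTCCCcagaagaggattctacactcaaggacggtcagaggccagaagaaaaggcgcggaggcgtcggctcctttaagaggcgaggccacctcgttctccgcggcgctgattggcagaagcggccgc
In Nfkb2 the capitals hold the palindromic word that matches on both strands. Tspan3 was 82.1-, 7.63- and 25.1-fold higher in the Fscn1/Ccl22 cells of C1, C3 and C4.

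Genes of MHC class II presentation did not rank with the maturation genes. H2-Ab1, a chain of the MHC class II molecule, stood at 13424, 12314, 7884 and 13580.1 CPM in type 2 cells of C1 to C4 and at 14136, 10714, 8440.2 and 10064 CPM in type 1 cells. In the Fscn1/Ccl22 cells it stood at 2176 (1723 to 2712), 4531 (3609 to 5616), 7911 (7409 to 8438) and 2768 CPM (2432 to 3138). They were below type 2 cells in C1, C2 and C4 and level with them in C3, where the 6 cells without a Ccr7 UMI had 8816 CPM. H2-DMb1, part of the peptide exchanger of class II, was at 0, 0, 411 and 34.0 CPM in Fscn1/Ccl22 cells, with 1137, 1029, 1011 and 309 CPM in type 2 cells. It was the 1 of 13 class II genes tested that was lower in C1, C3 and C4, where 2.17% of all genes tested were. The list's median log2 difference was -0.99, against -0.14 over all genes tested. The 14 genes of the MHC class I list summed to 20711, 13810.0, 14683 and 12707 CPM in Fscn1/Ccl22 cells of C1 to C4, with 7443, 13428, 11519 and 6492 CPM in type 2 cells. Of its 13 tested genes, 0 were counted as higher or lower, and the median log2 difference was 0.32 against -0.14 over all genes tested.

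Cst3, the protease inhibitor cystatin C that dendritic cells express strongly, stood at 22329, 24862, 16149 and 17259 CPM in type 1 cells, the highest of the 3 subgroups in C1, C3 and C4. Type 2 cells had 8292, 4815, 1703 and 2009 CPM, and the Fscn1/Ccl22 cells 16965, 26146, 1147 and 942 CPM. C1 and C2 were therefore above C3 and C4 in both of these subgroups, with 74.7% of the Cst3 UMIs of the Fscn1/Ccl22 cells of C1 in 1 cell. Macrophages went the same way in the libraries with more than 1 of them, at 9283, 4507 and 1356 CPM in C1 to C3. Which condition each library is cannot be told, so these values carry no direction between gland and lymph node or between control and SS.

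To compare the libraries within a subgroup, genes were tested if they had at least 30 UMIs in the library where their CPM was highest. They were counted when that library was at least 2-fold over the lowest. A gene thus passed this filter through its highest library, which bears on the shares below. In type 2 cells 579 of 1039 genes, 55.7%, were apart in this sense. The share was 25.2% in type 1 cells (106 of 421 genes, without C3) and 55.9% in the Fscn1/Ccl22 cells (308 of 551 genes, without C2). With 3 to 23 cells on a side, single cells can carry such a gene, and a count near these shares says nothing particular about a list. With only the cells that had a Ccr7 UMI, C1 again dropped out and 48 genes were apart in the Fscn1/Ccl22 cells. Without the 24 type 2 cells rich in Ly6c2 or Lyz2, 324 genes were apart in type 2 cells. Both settings hold fewer UMIs, so fewer genes can reach 30 UMIs, and the number tested is not given for them. The counts 48 and 324 are therefore no shares, and they do not show that libraries differed less.

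In type 2 cells of C1 to C4 the inflammatory cytokine Il1b stood at 2242 CPM (2068 to 2426), 1865 (1694 to 2049), 22.8 (4.70 to 66.7) and 88.3 (24.1 to 226). Without the cells rich in Ly6c2 or Lyz2 the Il1b levels were 3019.9, 783, 0 and 88.3 CPM. Ccl4, a chemokine that attracts T cells and monocytes, stood at 1079 and 1665 CPM in C1 and C2 and had no UMI in C3 and C4, where the exact intervals reach up to 28.0 and 81.5 CPM. Without the same cells Ccl4 stood at 952, 1835, 0 and 0 CPM. C1 and C2 were thus above C3 and C4 for both. Macrophages showed a like order, with 3352, 2072 and 177 CPM of Il1b in C1 to C3 and 11558, 4515 and 0 CPM of Ccl4. In T cells Ccl4 stood at 1084, 2972, 163 and 14.6 CPM.

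A second set was highest in C2. Ly6a, a surface protein induced by interferons, stood at 7.29, 1289, 342 and 0 CPM in type 2 cells of C1 to C4, and at 14.2, 1781, 152 and 0 without the cells rich in Ly6c2 or Lyz2. Cxcl9, a chemokine induced by interferon-gamma, stood at 32.8, 777, 22.8 and 0 CPM, and at 0, 1351, 19 and 0 without those cells. Single cells weighed on these levels. In C2, 9 of 18 type 2 cells had a Cxcl9 UMI and 1 cell held 47.8% of these UMIs, and in C1 1 cell held all of them. Ly6a had a UMI in 16 of 18 cells of C2, with 24.5% in 1 cell, whereas 1 cell held 77.8% of its UMIs in C3. Psmb9, a subunit of the immunoproteasome, stood at 179 (132 to 236), 568 (475 to 673), 502 (388 to 638) and 265 (137 to 463). C2 and C3 were thus above C1 and C4 for Psmb9, although the intervals of C3 and C4 overlapped. A list of 15 interferon-response genes summed to 1553, 2971, 2653 and 795 CPM. All 7 of its tested genes were apart, where 55.7% of all genes tested were, and the median ratios were 4.37 and 2.19. These genes had passed the filter through their highest library, so the count only describes the list. Of the MHC class I list, 8 of 12 were apart, not far from the 55.7% of all genes, with a median ratio of 2.80.

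Immediate-early genes, which cells switch on within minutes of a stimulus or of handling, were highest in C1. Fos stood at 3947 CPM (3716 to 4189.8), 2207 (2021 to 2405), 509 (395 to 647) and 618 (411 to 894) in type 2 cells of C1 to C4, and Nr4a1 at 959, 534, 45.6 and 44.2 CPM. Without the cells rich in Ly6c2 or Lyz2, Fos stood at 2778, 1528, 721 and 618 CPM. All 15 listed early-response genes were apart in type 2 cells, where 55.7% of all genes tested were (median ratio 8.36 against 2.19). In type 1 cells 9 of 9 tested were apart, where 25.2% of all genes tested were (3.26 against 1.49). Each gene had passed the filter through its highest library, so these counts only describe the list. The list summed to 25857, 15887, 5139.6 and 3997 CPM in type 2 cells, 21747, 11227, 3533 and 8085 in type 1 cells, and 7491, 3002, 5299.7 and 4164 in the Fscn1/Ccl22 cells. Other cells went along: T cells had 16370.2, 6874, 3020.3 and 4374 CPM, B cells 13517, 7712, 2850.3 and 4814. Only the gland was digested per the labels, and which libraries that concerns is not known. The part of handling in the Il1b, Ccl4, Fos and Nr4a1 differences was not tested.

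**Figure D5:**
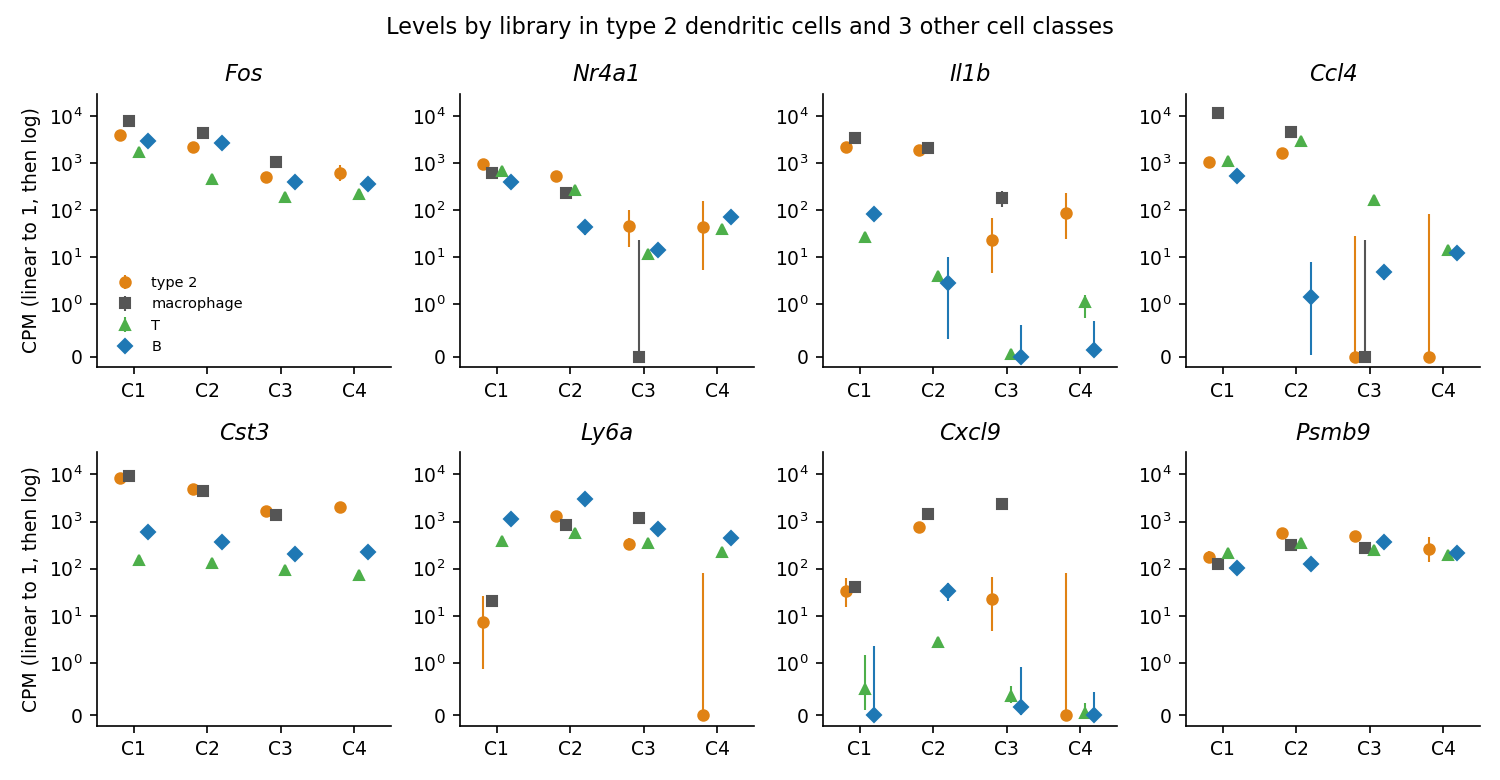
CPM of 8 genes (vertical axis, linear to 1 and then logarithmic) by library (horizontal axis) in type 2 dendritic cells and in macrophages, T cells and B cells of the same libraries, with exact 95% Poisson intervals that cover counting error only; classes with under 3 barcodes are left out. Fos in type 2 cells falls between 509 and 3947 CPM and is higher in C1 and C2 than in C3 and C4 in every class shown.

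In the Fscn1/Ccl22 cells several library differences rested on single cells. Lyz2 stood at 0, 9701 and 11.3 CPM in C1, C3 and C4, and 82.0% of its UMIs in C3 came from 1 cell. Cfb, complement factor B, stood at 0, 1104 and 0 CPM, with 93.8% of its UMIs from 1 cell. Clu, the extracellular chaperone clusterin, stood at 606, 0 and 1271 CPM, and 1 cell held all 22 of its UMIs in C1 and 1 cell 73.2% of those in C4. H2-M2, a non-classical MHC class I gene, stood at 468, 34.2 and 1259 CPM, with 70.6% and 53.2% of its UMIs of C1 and C4 in 1 cell each. Aldh1a2, the enzyme that makes retinoic acid, stood at 826, 8.56 and 45.4 CPM, with 90% of its UMIs of C1 in 1 cell.

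Dividing cells were few. At least 3 UMIs of Mki67, a protein of dividing cells, were found in 4 type 1, 4 type 2 and 2 Fscn1/Ccl22 cells, 5 of these 10 in C3. In type 2 cells Mki67 stood at 29.2, 12.8, 403 and 66.2 CPM, and 81.1% of the C3 UMIs came from 1 cell. A list of 13 cycling genes summed to 1334, 512, 7185 and 1546 CPM in type 2 cells. In B cells of the same libraries Mki67 stood at 12.4, 15.7, 301 and 147 CPM.

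Markers of other cell types were low in the members. A list of 8 T-cell genes summed to 29.1, 0, 49.5 and 142 CPM over all members of C1 to C4, and 7 B-cell genes to 96.9, 99.4, 219.8 and 134 CPM. The 9 macrophage genes summed to 538, 513, 479.8 and 122 CPM, where macrophages had 20621, 10847 and 2313 CPM in C1 to C3. The 8 plasmacytoid genes summed to 380.3, 422, 662 and 318 CPM. The monocyte list was higher, at 1061, 2723, 4425 and 618 CPM in type 2 cells. Because the rule removed cells with Cd3, Cd79a, C1q or Siglech UMIs, part of these low values is set by it.

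Secretory salivary transcripts followed the libraries in all cells. A list of 16 such genes summed to 3868 and 5893 CPM over the members of C1 and C2, to 18.6 CPM in C3 and to 0 in C4. T cells had 16285, 23269, 3.94 and 4.00 CPM of the same list. Mucl2, a mucin-like secretory protein, stood at 2592, 4678, 0 and 0 CPM in type 2 cells, and every member of C1 and C2 had a Mucl2 UMI. The part of these transcripts in the library differences was not tested. With these genes left out of the CPM total, 583 genes were apart in type 2 cells against 579 with them. That step changes only the total and removes no background RNA of other genes, so it cannot show what part background had. No library was assigned to a tissue from these values.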

How the data were processed

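The authors deposited unfiltered UMI count matrices of 4 expression libraries; per the file headers these are Cell Ranger 4 output, whereas the submitters' processing notes name Cell Ranger 6.1.2, STAR 2.7.10a and build mm10, and the labels' protocol names BD Rhapsody where the design text names 10X. The counts were used as deposited. Barcodes, members and subgroups were chosen by the stated rule; the members and gene lists were chosen with earlier results of these data known. UMIs were summed by library and subgroup and divided by the summed total (CPM). Intervals are exact Poisson (CPM) or Clopper-Pearson (shares, and folds through the share of UMIs on 1 side), at 95%; 0 UMIs were set to a floor of 3. The planned minimum of 20 cells on both sides was met by 0 libraries, so 3 cells were used, a choice made after seeing the data. Genes were named by rank of the smallest difference over libraries, by each list's highest members and largest ratio, or from the rule; other named genes were chosen after their values were seen. Doublets were scored with Scrublet in scanpy 1.11.5, and none was removed on that score. Thinning drew 5071 UMIs per cell. The contrast was run on simulated Poisson counts with no spread between cells. That run cannot show how often single cells produce a call in the real data. Everything ran in Python 3.11.15.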

Additional observations from a re-analysis of the deposited data

How the results depend on the processing

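A depth of at least 1000 UMIs changed no number of members by library and subgroup. Other settings changed these numbers by a few cells. A Cd74 minimum of 10 gave 16 Fscn1/Ccl22 cells in C3 against 12, and at most 5% mitochondrial UMIs left 2 in C1 against 3. With no C1q UMI allowed, 20 type 2 cells were left in C1 against 23. Without the top 5% of doublet scores, 5 type 1 cells were left in C2 against 6. A Cd74 minimum of 40 left 5 Fscn1/Ccl22 cells in C4. Allowing 1 Cd3 UMI gave 2 in C2, and higher subgroup minimums left 3 type 1 cells in C2. Letting the subgroups overlap gave 5 type 1 cells in C1, 5 type 2 cells in C4, and 6 and 2 Fscn1/Ccl22 cells in C1 and C2. At a 3-fold threshold, 16 genes were higher and 21 lower in type 1 cells, 2 and 16 in type 2 cells, and 62 and 14 in Fscn1/Ccl22 cells; 46, 363 and 189 were apart between libraries. With at least 20 UMIs per gene, 28, 3 and 64 genes were higher in the 3 subgroups and 17 lower in type 2 cells. With at least 60 UMIs in the highest library, 35, 261 and 116 were apart between libraries. Leaving out 1 library at a time, genes higher ranged from 120 to 146 in type 1, 12 to 45 in type 2 and 189 to 248 in Fscn1/Ccl22 cells, and genes lower from 146 to 168, 49 to 74 and 108 to 277; fewer libraries then have to agree. Of the levels of single genes, 49 left their counting interval and 182 did not when each cell's CPM was averaged, and 43 and 188 did so with overlapping subgroups.

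Chosen after seeing the data, only Fscn1/Ccl22 cells with a Ccr7 UMI gave 213 genes higher (99 shared with those reported), 296 lower (37 shared), 48 apart between libraries (36 shared), and 23 higher in type 2 cells (8 shared). Type 2 cells without those rich in Ly6c2 or Lyz2 (26 cells) gave 324 genes apart (267 shared). In these settings 21 levels of single genes left their interval and 27 did not, and 42 and 66 did so, in turn. The cause of these changes was not tested. Each setting held fewer cells, and the number of genes tested is not given for it, so its counts are not shares. No paired analysis was possible because the libraries carry no replicate number and no test was made. With 1 to 23 cells a library in each subgroup, depth and cell number limit every value, and intervals leave out the spread between animals.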

Other observations

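The 8 cells that met 2 criteria were of mixed kinds: 6 met those of type 2 and Fscn1/Ccl22 cells, 1 those of type 1 and type 2, and 1 those of type 1 and Fscn1/Ccl22 cells. None of the 8 had a Ccr7 UMI, and 7 of them had a UMI of Flt3 or Zbtb46. Immediate-early genes summed to 24276 CPM in the 4 such cells of C1, 5829 in the cell of C2, 696 in that of C3 and 6377 in the 2 of C4.

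The C1q limit left cells outside that carry genes of type 1 cells. In C2, 82 of 345 macrophage comparison barcodes had an Xcr1 UMI (51.2 CPM) and 130 had a Clec9a UMI (59.7 CPM), whereas Xcr1 stood at 1.39 CPM in the macrophages of C1 and at 0 in those of C3 and C4.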
